A study of Homo sapiens with 8 samples.

Results

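Olaparib was compared with its solvent DMSO in SUM159 cells that carried a control shRNA (shCon). SUM159 is a long-established cell line of human triple-negative breast cancer. Cells were held for 3 days in 10 uM olaparib or in DMSO, and the labels list 2 libraries for each of these groups. Both groups carry shCon, and both were grown in medium with insulin and hydrocortisone, so neither shows cells without an shRNA or without these hormones. Other groups of the series carry an shRNA against FOXO1. The members are the genes that the authors' table of this comparison marks as tested, 14841 of 60595 listed genes, and they were not chosen by how they moved. For each gene the table gives 1 FPKM value per group, which is fragments scaled to transcript length and sequencing depth. No value per library was analysed here, so no SD stands beside a value and the depth is unknown. Calls of higher or lower rest on q-values of at most 0.05 in the authors' deposited table. Nothing in the labels ties a group's 2 libraries to separate cultures, and the spread behind these q-values may be technical.

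Olaparib blocks the catalytic site of PARP1 and PARP2, enzymes that mark DNA breaks with chains of ADP-ribose, and it holds both proteins on the DNA. Replication forks that run into such lesions need homologous recombination to restart, and cells without that repair die. Cells that survive for days with unrepaired breaks are known to halt in the cell cycle, to mis-segregate chromosomes and, where DNA leaks into the cytosol, to switch on interferon and NF-kB signalling. In triple-negative cells the pathways of growth factors, insulin and matrix adhesion set proliferation and survival.

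A large share of the tested genes differed between olaparib and DMSO cells, and falls outnumbered rises. Calls were made for 5744 tested genes (38.7%), with 2311 higher (15.6%) and 3433 lower (23.1%). The counts of every gene list below stand against these shares. Rises of at least 4-fold were seen in 429 called genes and falls of that size in 326, while 1045 rises and 1988 falls were of less than 2-fold. The median log2 ratio of olaparib over DMSO was -0.07 over the tested genes, with an interquartile range from -0.60 to 0.51. It became 0.02 after quantile normalization and 0.18 after scaling to the upper quartile, so a list median near 0 has no secure sign. The smallest q-value of the authors' deposited table, 0.000284, was shared by 2610 genes. A called gene whose FPKM values are given below had that q-value unless another is given.

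The 15 largest rises among called genes that averaged at least 10 FPKM had log2 ratios from 2.96 to 5.51 and included SESN3, SLC6A3, PPP1R14C, MAN1A1, SELENOP, PWWP3B, CYP4B1, MYBPC1, ADD3, LIFR, AZGP1, RDH10, LAPTM5 and FIBIN. SESN3 (ENSG00000149212, chr11:95165513-95232475 in GRCh38.p14), a sestrin that restrains mTORC1, stood at 39.0 FPKM with olaparib and 0.857 FPKM with DMSO. CYP4B1, a cytochrome P450 that oxidises fatty acids and foreign compounds, stood at 499.5 FPKM with olaparib and 26.3 FPKM with DMSO, the highest level among these 15 genes. SLC6A3, the dopamine transporter, had 40.0 FPKM with olaparib and 1.23 FPKM with DMSO. MAN1A1, a mannosidase that trims glycoproteins in the Golgi, had 34.7 and 1.27 FPKM in olaparib and DMSO cells. AZGP1, a secreted lipid-mobilising protein, had 73.0 FPKM with olaparib and 7.00 FPKM with DMSO. RDH10, which makes the precursor of retinoic acid, had 29.95 FPKM with olaparib and 3.68 FPKM with DMSO (q = 0.00101 in the authors' deposited table).

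The 15 largest falls under the same rule were CCL5, COL6A2, OAS2, BOLA2B, RSAD2, CXCL8, PRSS23, CNN3, IFIT1, OASL, SCG5, IFIT3, TNFAIP2, ISG15 and IFIT2, with log2 ratios from -8.62 to -4.63. Of these, OAS2, RSAD2, IFIT1, OASL, IFIT3, ISG15 and IFIT2 are known as interferon-induced antiviral genes. ISG15 (ENSG00000187608, chr1:1013497-1014540), a ubiquitin-like protein, had 52.3 FPKM with olaparib against 1366 FPKM with DMSO. OASL, an antiviral relative of the oligoadenylate synthetases, had 14.02 FPKM with olaparib against 508 FPKM with DMSO. IFIT1 (ENSG00000185745, chr10:89392623-89406487), which binds foreign RNA caps, had 2.84 FPKM with olaparib and 107 FPKM with DMSO. DMSO cells thus held these antiviral transcripts at high levels without the drug. CNN3, an actin-binding calponin, had 0.812 FPKM with olaparib and 33.2 FPKM with DMSO. PRSS23, a secreted serine protease, had 0.915 and 50.4 FPKM in olaparib and DMSO cells. BOLA2B has a near-identical copy, so its value is uncertain (q = 0.0329 in the authors' deposited table).

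Promoters of 4 of the genes above and below are shown because these genes are among the changes described and hold motifs known from interferon, cell cycle and FOXO control. Each is RefSeq's sequence of GRCh38.p14, from 250 bases before the start site to 50 after it, written 5′ to 3′ on the gene's strand, with motif matches in capitals. IFIT1 lies at chr10:89392373-89392672 on the plus strand and ISG15 at chr1:1013247-1013546 on the plus strand, and their capitals mark GAAA, any 2 bases and GAAA on either strand, the core of the interferon-stimulated response element. ASPM lies at chr1:197146620-197146919 on the minus strand, with TTTGAA, the core of the cell cycle homology region, marked on the opposite strand. SELENOP lies at chr5:42811843-42812142 on the minus strand, with the FOXO core GTAAACA marked.
IFIT1: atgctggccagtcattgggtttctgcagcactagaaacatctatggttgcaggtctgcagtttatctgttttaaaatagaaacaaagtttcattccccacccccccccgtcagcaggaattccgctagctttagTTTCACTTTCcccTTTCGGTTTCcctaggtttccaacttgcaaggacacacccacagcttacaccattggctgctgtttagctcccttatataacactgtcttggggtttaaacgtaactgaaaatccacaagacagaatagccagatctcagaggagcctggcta
ISG15: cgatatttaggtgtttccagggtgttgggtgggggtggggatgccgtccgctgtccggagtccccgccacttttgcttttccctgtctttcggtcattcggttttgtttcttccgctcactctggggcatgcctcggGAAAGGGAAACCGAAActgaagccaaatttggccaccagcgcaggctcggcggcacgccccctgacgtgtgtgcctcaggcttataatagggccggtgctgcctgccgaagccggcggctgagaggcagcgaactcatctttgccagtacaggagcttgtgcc
ASPM: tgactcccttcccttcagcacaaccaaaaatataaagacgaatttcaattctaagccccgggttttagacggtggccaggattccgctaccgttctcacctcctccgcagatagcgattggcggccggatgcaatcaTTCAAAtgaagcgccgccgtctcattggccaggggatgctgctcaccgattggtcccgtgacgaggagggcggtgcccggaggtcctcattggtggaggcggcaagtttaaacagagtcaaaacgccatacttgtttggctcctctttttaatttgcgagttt
SELENOP: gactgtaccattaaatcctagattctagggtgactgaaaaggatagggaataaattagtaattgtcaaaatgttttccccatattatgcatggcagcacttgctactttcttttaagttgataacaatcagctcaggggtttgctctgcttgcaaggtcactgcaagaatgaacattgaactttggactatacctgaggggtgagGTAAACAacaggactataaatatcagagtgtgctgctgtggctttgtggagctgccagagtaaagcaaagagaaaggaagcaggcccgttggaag

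IFIT1 and ISG15 each hold 2 matches of the interferon element, which overlap in ISG15, and the farthest lie 116 and 113 bases before the start. In ASPM the match lies 113 bases before the start, and in SELENOP 45 bases before it. Promoters could be read for 9801 of 11848 protein-coding tested genes. The pair of GAAA 2 bases apart was present in 17 of 195 promoters of genes lower by at least 4-fold (8.72%), in 9 of 249 of genes higher by at least 4-fold (3.61%) and in 2.96% of all promoters read. Over all called genes its shares were close, 3.19% of higher and 3.29% of lower. TTTGAA or TTCGAA, searched on both strands, was present in 15.4% of promoters of called higher genes, 8.99% of called lower genes and 11.2% of all. GTAAACA was present in 3.25% of higher, 1.89% of lower and 2.27% of all promoters. Among changes of at least 4-fold it was in 3 of 249 promoters of higher genes (1.20%) and in 0 of 195 of lower genes. CACGTG, the E-box bound by MYC and clock factors, ran the other way, in 8.43% of higher, 12.3% of lower and 10.3% of all promoters. Promoter GC content moved with the calls as well. In the quintile of promoters with the least GC 22.0% of genes were higher and 23.6% lower, against 15.01% and 30.1% in the quintile with the most. The part of base composition in the motif shares was not tested.

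Among enzymes of ADP-ribosylation, its readers and linked break repair genes, 2 of 29 tested members were higher and 9 lower, with a median log2 ratio of -0.21. The readers and break repair genes made up 7 of these members, with 0 higher and 3 lower. Over all tested genes 15.6% were higher and 23.1% lower. PARP1 (ENSG00000143799, chr1:226360691-226408093), the main target of the drug, fell to 51.1 FPKM with olaparib, against 73.7 FPKM with DMSO (log2 ratio -0.53), with q = 0.00186 in the authors' deposited table. PARP2 was not called, at 22.4 FPKM with olaparib and 26.05 FPKM with DMSO (q = 0.396 in the authors' deposited table). Larger falls were in PARPs known from antiviral defence. ZC3HAV1, a zinc finger PARP that binds viral RNA, stood at 14.4 FPKM with olaparib against 79.0 FPKM with DMSO. PARP12 had 14.95 and 37.5 FPKM, and PARP14 12.1 and 21.5 FPKM, in olaparib and DMSO cells. MACROD2, an eraser of mono-ADP-ribose, was higher, with 4.03 FPKM with olaparib and 0.483 FPKM with DMSO. LIG3, the ligase of single-strand break repair, had 6.89 FPKM with olaparib and 14.1 FPKM with DMSO (q = 0.00781 in the authors' deposited table).

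Among genes known to alter the response to PARP inhibitors 2 of 17 tested members were higher (11.8%) and 3 lower (17.6%), near the shares of all tested genes. HLTF, a remodeller of stalled forks, was at 18.5 FPKM with olaparib and 4.06 FPKM with DMSO. RIF1, which limits resection of breaks, was at 6.50 FPKM with olaparib and 3.50 FPKM with DMSO. The efflux pump ABCG2 was lower, at 0.833 FPKM with olaparib and 3.56 FPKM with DMSO. Of 24 genes of the damage checkpoint, 6 were higher and 1 lower (median 0.31). ATR, the kinase of stalled forks, had 11.6 FPKM with olaparib and 6.44 FPKM with DMSO (q = 0.00448 in the authors' deposited table). Its mediator CLSPN had 6.20 FPKM with olaparib and 2.71 FPKM with DMSO, and its activator ETAA1 had 7.29 FPKM with olaparib and 3.57 FPKM with DMSO. HUS1, a clamp subunit, was the lower member, at 7.59 FPKM with olaparib and 16.5 FPKM with DMSO.

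Targets of p53 moved in both directions. Of 23 tested targets 5 were higher and 10 lower. Among the 9 grouped under cell death, whatever their effect on it, 1 was higher and 7 lower. Their median was -0.78, and -0.28 relative to genes of like level and span. BTG2, an antiproliferative factor, stood at 19.2 FPKM with olaparib and 3.47 FPKM with DMSO. ZMAT3, an RNA-binding target, stood at 9.28 FPKM with olaparib and 3.03 FPKM with DMSO. AEN, a nuclease of apoptosis, was at 6.19 FPKM with olaparib against 35.8 FPKM with DMSO. GADD45A, a stress sensor, had 88.2 FPKM with olaparib against 274 FPKM with DMSO, and TNFRSF10B, a death receptor for TRAIL, 48.8 against 101 FPKM. None of the 6 tested targets of repair and metabolism was called. The wider list of cell death genes had 3 of 27 tested members higher and 14 lower. PMAIP1, the BH3-only protein NOXA, had 6.20 FPKM with olaparib and 37.3 FPKM with DMSO, and BAK1, a pore-forming effector, 9.08 and 32.2 FPKM. The survival protein BCL2 was higher, with 8.23 FPKM with olaparib and 3.12 FPKM with DMSO.

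Many mitotic genes were higher in olaparib cells. TOP2A (ENSG00000131747, chr17:40388525-40417896), the topoisomerase that untangles sister chromatids, had 151 FPKM with olaparib and 39.3 FPKM with DMSO. Among mitotic kinesins 10 of 12 tested members were higher and none lower (median 0.89). KIF14, which acts in cytokinesis, stood at 8.21 FPKM with olaparib and 1.86 FPKM with DMSO. CENPE, the motor that carries chromosomes to the spindle equator, stood at 6.49 FPKM with olaparib and 1.57 FPKM with DMSO. KIF22 and KIF2C were not called, KIF22 at 65.3 FPKM with olaparib and 65.7 FPKM with DMSO.

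At the centromere and kinetochore 19 of 37 genes were higher and 1 lower (median 0.44). CENPF, a large kinetochore protein (ENSG00000117724, chr1:214603195-214664571), rose to 33.5 FPKM with olaparib, against 5.88 FPKM with DMSO. TTK, the kinase that starts the spindle checkpoint, had 23.5 FPKM with olaparib and 6.91 FPKM with DMSO. CENPC, which ties the kinetochore to centromeric chromatin, had 5.33 FPKM with olaparib and 1.35 FPKM with DMSO. MIS18A, which helps load the centromeric histone, was the lower member at 7.74 FPKM with olaparib and 14.8 FPKM with DMSO. Of 19 condensin and cohesin genes 10 were higher and none lower (median 0.53), SMC4 of condensin having 83.1 FPKM with olaparib and 30.8 FPKM with DMSO. Of 16 centriole genes 7 were higher and 1 lower (median 0.71). ASPM, a spindle pole protein whose promoter is shown above, had 18.5 FPKM with olaparib and 3.57 FPKM with DMSO.

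Cell cycle regulators were mixed. Of 21 tested cyclins, kinases and inhibitors 9 were higher and 4 lower. CDK1, the kinase of mitotic entry, had 93.9 FPKM with olaparib and 39.7 FPKM with DMSO. The cyclins CCNB1 and CCNB2 were not called. CCNB1 was at 168 FPKM with olaparib and 175 FPKM with DMSO (q = 0.795 in the authors' deposited table). CCND1 and CCND3, the D-type cyclins that drive exit from G1, were lower, CCND1 at 79.5 FPKM with olaparib against 168 FPKM with DMSO and CCND3 at 65.6 against 145 FPKM. Among inhibitors CDKN2C was higher, at 101 FPKM with olaparib and 36.7 FPKM with DMSO, and CDKN1A, which encodes p21, was lower, at 33.5 FPKM with olaparib and 61.5 FPKM with DMSO. Of 20 genes of the RB-E2F system 7 were higher and 6 lower. MYBL2 was lower, at 58.1 FPKM with olaparib and 85.8 FPKM with DMSO (q = 0.00054 in the authors' deposited table), and FOXM1 was not called. The pocket proteins RBL1 and RBL2, which restrain E2F, were higher, RBL1 at 8.49 FPKM with olaparib and 2.66 FPKM with DMSO and RBL2 at 42.8 and 18.7 FPKM. E2F5, a repressive E2F, was at 2.95 FPKM with olaparib against 14.8 FPKM with DMSO.

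**Figure D1:**
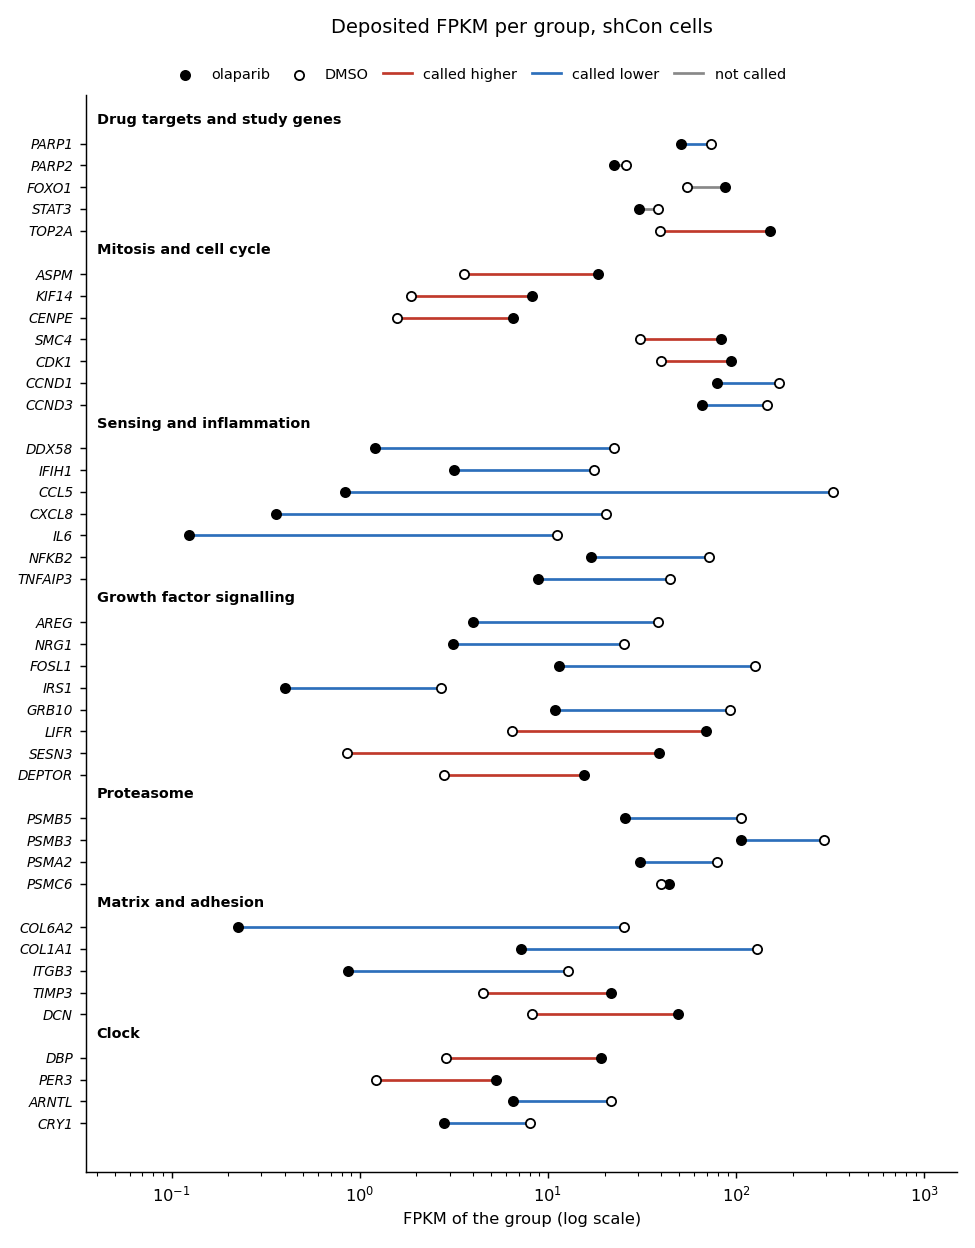
FPKM of each group (horizontal axis, log scale) for 40 genes of 7 themes, with filled points for olaparib, open points for DMSO and a line coloured by the call. Mitotic genes such as CENPE lie higher with olaparib (6.49 against 1.57 FPKM), and inflammatory genes such as CCL5 lie far lower (0.836 against 328 FPKM).

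Chemokines, cytokines and the NF-kB machinery were mostly lower with olaparib. Of 10 tested chemokines 1 was higher and 7 lower, with a median log2 ratio of -2.95. CCL5 (ENSG00000271503, chr17:35871491-35880360), an attractant of T cells, had 0.836 FPKM with olaparib against 328 FPKM with DMSO. CXCL8, the neutrophil attractant, had 0.358 FPKM with olaparib against 20.3 FPKM with DMSO. CXCL10 was not called in spite of 0.0475 FPKM with olaparib and 27.9 FPKM with DMSO (q = 0.277 in the authors' deposited table). CXCL12, the ligand of CXCR4, was the higher member, at 16.1 FPKM with olaparib and 1.68 FPKM with DMSO. Of 13 tested cytokines 1 was higher and 8 lower (median -1.48). IL6 had 0.125 FPKM with olaparib against 11.2 FPKM with DMSO (q = 0.00448 in the authors' deposited table), and IL32 158 against 458 FPKM. IL7, a lymphocyte survival factor, was higher, at 6.86 FPKM with olaparib and 1.30 FPKM with DMSO.

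Cytokine receptors were divided, with 6 of 22 tested members higher and 9 lower. LIFR (ENSG00000113594, chr5:38474668-38608403), the receptor of leukaemia inhibitory factor, had 68.9 FPKM with olaparib and 6.47 FPKM with DMSO. IL6R had 15.5 FPKM with olaparib and 5.63 FPKM with DMSO (q = 0.00054 in the authors' deposited table). TNFRSF12A, the receptor of TWEAK, was lower, at 73.2 FPKM with olaparib and 315 FPKM with DMSO. Of 19 tested genes of JAK-STAT signalling 6 were higher and 2 lower, and STAT3 was not called at 30.4 FPKM with olaparib and 38.6 FPKM with DMSO (q = 0.0645 in the authors' deposited table). STAT2 was higher, at 44.98 FPKM with olaparib and 25.7 FPKM with DMSO. The feedback inhibitors SOCS2 and SOCS3 were the lower members, SOCS2 at 1.73 FPKM with olaparib against 13.1 FPKM with DMSO and SOCS3 at 2.61 against 10.7 FPKM.

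In the NF-kB machinery 2 of 24 genes were higher and 18 lower (median -1.19). The subunit gene NFKB2 had 17.0 FPKM with olaparib against 71.4 FPKM with DMSO. The feedback inhibitor TNFAIP3 had 8.82 FPKM with olaparib against 44.3 FPKM with DMSO, and BIRC3, a ubiquitin ligase of TNF receptors and itself an NF-kB target, 4.58 against 94.0 FPKM. Of 22 tested genes of nucleic acid sensing 2 were higher and 8 lower. DDX58, the RNA sensor RIG-I, had 1.21 FPKM with olaparib against 22.3 FPKM with DMSO, and its relative IFIH1 3.17 against 17.6 FPKM. TLR3, an endosomal RNA receptor, was higher at 8.71 FPKM with olaparib and 3.03 FPKM with DMSO. In antigen presentation 1 of 20 genes was higher and 7 lower, with the peptide transporter TAP2 at 10.5 FPKM with olaparib and 29.6 FPKM with DMSO. Of the 8 tested checkpoint ligands none was higher and 6 were lower. CD274, which encodes PD-L1, had 0.675 FPKM with olaparib and 4.90 FPKM with DMSO (q = 0.00341 in the authors' deposited table). Ligands of the receptor NKG2D, the other part of that list, were mixed, with 1 of 7 higher and 3 lower (median 0.36). ULBP3 was the higher one, at 16.3 FPKM with olaparib and 3.90 FPKM with DMSO.

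Among ERBB ligands and receptors, ERK feedback genes and their targets 1 of 26 tested members was higher and 18 were lower (median -1.30). None of the 6 tested ligands was higher and 5 were lower. AREG, amphiregulin, had 4.004 FPKM with olaparib against 38.3 FPKM with DMSO, and NRG1, neuregulin, 3.12 against 25.3 FPKM. All 6 nuclear targets tested were lower. FOSL1 (ENSG00000175592, chr11:65892049-65900545), an AP-1 subunit, had 11.4 FPKM with olaparib against 126 FPKM with DMSO. EGFR itself had 12.3 FPKM with olaparib and 37.0 FPKM with DMSO. DUSP4, an ERK phosphatase, was the higher member, at 4.72 FPKM with olaparib and 3.55 FPKM with DMSO (q = 0.0466 in the authors' deposited table).

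Of 29 tested insulin and mTOR genes 7 were higher and 10 lower. Of 6 receptors and adaptors 1 was higher and 4 lower (median -1.31). IRS1 had 0.402 FPKM with olaparib against 2.70 FPKM with DMSO, IRS2 7.62 against 19.4 FPKM and the adaptor GRB10 10.9 against 93.3 FPKM. PIK3R1, the regulatory subunit of PI3K, was higher, at 159 FPKM with olaparib and 68.5 FPKM with DMSO. Inhibitors of mTOR signalling were among the rises, with SESN1 at 53.6 FPKM with olaparib and 10.5 FPKM with DMSO and DEPTOR at 15.6 and 2.81 FPKM. RHEB, the GTPase that activates mTORC1, was lower, at 17.3 FPKM with olaparib and 47.3 FPKM with DMSO.

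FOXO factors are held in the cytosol by insulin and AKT and activate genes of quiescence and metabolism in the nucleus. Of 16 tested members of this list 8 were higher and 5 lower (median 0.64). FOXO1 was not called, at 87.7 FPKM with olaparib and 54.6 FPKM with DMSO (log2 ratio 0.68), with q = 0.0966 in the authors' deposited table. FOXO4 was higher, at 5.68 FPKM with olaparib and 2.24 FPKM with DMSO. Among targets SELENOP, the secreted selenium carrier whose promoter is shown above, had 79.2 FPKM with olaparib and 3.63 FPKM with DMSO, and CCNG2, a cyclin of quiescent cells, 33.6 and 7.77 FPKM. The mitochondrial dismutase SOD2, also an NF-kB target, was lower, at 158 FPKM with olaparib and 712 FPKM with DMSO. Of 13 tested genes of the glucocorticoid response 1 was higher and 4 lower, beside 15.6% and 23.1% of all tested genes. The higher one, FKBP5, had 361 FPKM with olaparib and 261 FPKM with DMSO (q = 0.00482 in the authors' deposited table).

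Matrix and adhesion genes were mostly lower. Of 28 tested collagen and crosslinking genes 3 were higher and 17 lower (median -1.04). COL1A1 (ENSG00000108821, chr17:50184101-50201631), the main fibrillar collagen chain, had 7.16 FPKM with olaparib against 129 FPKM with DMSO. COL6A2 had 0.224 FPKM with olaparib against 25.4 FPKM with DMSO. LOX, which crosslinks collagen, was higher at 18.1 FPKM with olaparib and 10.8 FPKM with DMSO (q = 0.00322 in the authors' deposited table). Of 22 tested integrins and laminins 2 were higher and 12 lower (median -1.03), with ITGB3, the integrin of vitronectin, at 0.863 FPKM with olaparib and 12.8 FPKM with DMSO. All 5 tested genes of the plasminogen system were lower. PLAUR, the receptor of urokinase, had 7.70 FPKM with olaparib against 36.0 FPKM with DMSO. Of 5 tested matrix metalloproteases (MMPs) 3 were higher and 1 lower, of 3 inhibitors 1 and 1, and of 9 ADAM proteases 1 and 3. The inhibitor TIMP3 was higher, at 21.6 FPKM with olaparib and 4.50 FPKM with DMSO, as was the membrane enzyme MMP15 at 22.9 and 6.07 FPKM. ADAMTS6 was lower, at 1.24 FPKM with olaparib and 3.81 FPKM with DMSO (q = 0.00144 in the authors' deposited table).

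Genes of YAP and TAZ, which respond to matrix stiffness, had none of 18 higher and 11 lower (median -0.64). TAZ itself, encoded by WWTR1, had 6.71 FPKM with olaparib and 15.6 FPKM with DMSO. Of 30 tested TGF-beta genes 5 were higher and 9 lower, beside 15.6% and 23.1% of all tested genes. The co-receptor TGFBR3 had 50.5 FPKM with olaparib and 12.6 FPKM with DMSO, and PMEPA1, a feedback target, was lower at 2.74 FPKM with olaparib and 10.4 FPKM with DMSO. Wnt and Notch genes divided evenly, 8 of 29 tested being higher and 8 lower. The Wnt receptor FZD8 had 14.9 FPKM with olaparib and 2.25 FPKM with DMSO, and the Notch ligand JAG2 was lower at 0.538 FPKM with olaparib and 17.2 FPKM with DMSO.

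Markers of the line showed no call. VIM had 2446 FPKM with olaparib and 2456 FPKM with DMSO, and CD44, FN1 and ZEB1 were also present in both groups. Of 21 tested genes of epithelial-mesenchymal state and breast identity 2 were higher and 8 lower. KRT7 had 686 FPKM with olaparib and 1616 FPKM with DMSO, while the basal keratin KRT5 was higher at 2.96 FPKM with olaparib and 0.485 FPKM with DMSO. Leukocyte markers, 5 genes with 2 at 0 in both groups, summed to 0.566 FPKM with olaparib and 2.204 FPKM with DMSO. Endothelial markers, 3 genes, summed to 0.0960 FPKM with olaparib and 0.111 FPKM with DMSO. Fibroblast markers moved in opposite directions, DCN at 49.3 FPKM with olaparib and 8.19 FPKM with DMSO and PDGFRA at 0.327 and 5.34 FPKM.

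**Figure D2:**
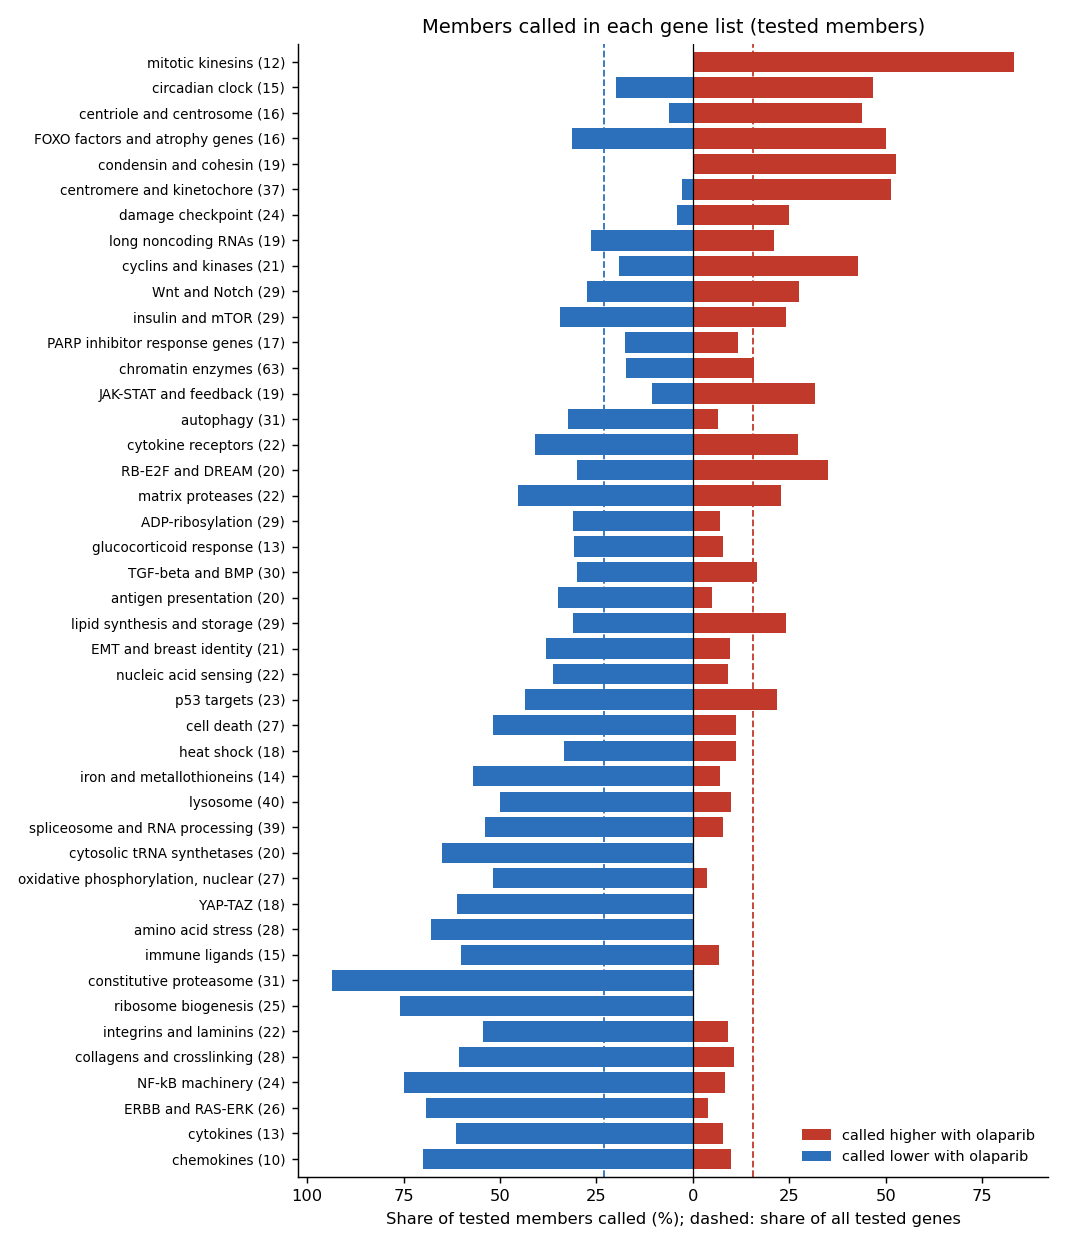
Share of tested members called higher (right) and lower (left) with olaparib in 44 gene lists, ordered by median log2 ratio with the highest at the top; dashed lines mark the shares over all tested genes, 15.6% and 23.1%. Mitotic kinesins lie at the top with 10 of 12 members higher, and the proteasome has the largest share lower, 29 of 31.

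Genes of protein production and breakdown were mostly lower. Of 31 constitutive proteasome subunits none was higher and 29 were lower, in the core (13 of 14) and in the regulatory cap (16 of 17). PSMB5 (ENSG00000100804, chr14:23025851-23035220), the subunit with chymotrypsin-like activity, had 25.8 FPKM with olaparib against 106 FPKM with DMSO. PSMB3 had 106 FPKM with olaparib against 292 FPKM with DMSO. The exceptions were PSMA1 and PSMC6, PSMC6 at 44.2 FPKM with olaparib and 39.9 FPKM with DMSO (q = 0.534 in the authors' deposited table). The list median of -0.89 shrank to -0.51 after quantile normalization and to -0.56 relative to genes of like level and span.

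Of 25 ribosome biogenesis factors none was higher and 19 were lower (median relative to genes of like level and span -0.60). RRP9 (ENSG00000114767, chr3:51933429-51941904), which guides processing of ribosomal RNA, had 15.5 FPKM with olaparib against 67.8 FPKM with DMSO, and NOP16 24.3 against 87.9 FPKM. Of 28 tested amino acid stress genes none was higher and 19 were lower, including 9 of 11 transporters (list median -0.75, and -0.52 relative to genes of like level and span). SLC7A5, the carrier of large neutral amino acids, had 115 FPKM with olaparib against 334 FPKM with DMSO. Of 20 cytosolic tRNA synthetases none was higher and 13 were lower (median -0.55, with -0.13 after quantile normalization and -0.17 relative to genes of like level and span). GARS, which charges glycine tRNA, had 44.4 FPKM with olaparib against 193 FPKM with DMSO. Of 39 spliceosome and RNA processing genes 3 were higher and 21 lower (median -0.52, with -0.18 after quantile normalization and -0.16 relative to genes of like level and span), with the splicing factor SRSF1 at 67.2 FPKM with olaparib and 139 FPKM with DMSO.

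Among heat shock genes 2 of 18 were higher and 6 lower, beside 15.6% and 23.1% of all tested genes. HSPA8, the constitutive HSP70, was higher at 1054 FPKM with olaparib and 571 FPKM with DMSO, and its co-chaperone STIP1 lower at 46.0 and 118 FPKM. Nuclear genes of oxidative phosphorylation had 1 of 27 higher and 14 lower (median -0.61, and -0.19 relative to genes of like level and span), with CYC1, cytochrome c1, at 155 FPKM with olaparib and 341 FPKM with DMSO. Most abundant mitochondrial transcripts were not called, MT-CO1 lying at 7351 FPKM with olaparib and 7482 FPKM with DMSO, whereas MT-CO2 was lower at 5362 FPKM with olaparib and 8538 FPKM with DMSO. Lysosomal genes had 4 of 40 higher and 20 lower. Autophagy genes had 2 of 31 higher and 10 lower, beside the same shares of all tested genes. ATG7, which activates the conjugation of autophagy proteins, had 12.8 FPKM with olaparib and 45.9 FPKM with DMSO. Of 14 tested genes of iron and metallothioneins 1 was higher and 8 lower, the ferritin chain FTH1 standing at 931 FPKM with olaparib and 2603 FPKM with DMSO. The other chain FTL was not called, at 2050 FPKM with olaparib and 2323 FPKM with DMSO (q = 0.35 in the authors' deposited table). Lipid genes were mixed, 7 of 29 tested being higher and 9 lower, with the droplet protein CIDEC at 144 FPKM with olaparib and 19.4 FPKM with DMSO.

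Clock genes moved in both directions, with 7 of 15 tested members higher and 3 lower (median 0.81). DBP (ENSG00000105516, chr19:48630030-48637379), an output factor, had 19.03 FPKM with olaparib and 2.89 FPKM with DMSO (q = 0.000778 in the authors' deposited table). PER3, of the repressing limb, had 5.27 FPKM with olaparib and 1.22 FPKM with DMSO, and the output factor HLF 4.86 and 1.06 FPKM. ARNTL, the activator BMAL1, was lower, at 6.53 FPKM with olaparib and 21.7 FPKM with DMSO, as were the repressor CRY1 at 2.80 and 7.99 FPKM and NFIL3, an opponent of DBP, at 7.87 and 17.4 FPKM. The labels give no time of day for harvest.

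Of 63 chromatin enzymes 10 were higher (15.9%) and 11 lower (17.5%). Among histone demethylases 0 of 14 were higher and 5 lower, and among remodellers 5 of 19 were higher and 2 lower. The demethylase KDM4C had 3.69 FPKM with olaparib and 8.64 FPKM with DMSO. SETD2, which methylates histone H3 in transcribed genes, had 20.9 FPKM with olaparib and 10.5 FPKM with DMSO. Of 19 tested long noncoding RNAs 4 were higher and 5 lower. The 4 higher ones were nuclear or damage-related transcripts, MALAT1 at 69.2 FPKM with olaparib and 25.1 FPKM with DMSO, NEAT1 at 94.1 and 60.8 FPKM, NORAD at 64.3 and 41.6 FPKM, and TUG1 at 32.7 and 23.3 FPKM (q = 0.0117 for TUG1 in the authors' deposited table). SNHG15, a host of a small nucleolar RNA, was lower at 17.8 FPKM with olaparib and 105 FPKM with DMSO.

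The direction of change went with the level of a gene. Below 1 FPKM in the mean of both groups, 15.1% of genes were called higher and 7.23% lower (median log2 ratio 0.70). Between 30 and 100 FPKM, 9.59% were higher and 41.4% lower (median -0.37), and above 100 FPKM 9.17% and 45.5%. After quantile normalization these band medians lay between -0.04 and 0.20. The FPKM of all listed genes summed to 660411 with olaparib and 739981 with DMSO, and the 100 highest genes held 38.7% of the sum with olaparib and 33.7% with DMSO. Relative to genes of like level and span, the median of p53 targets was 0.17, that of nucleic acid sensing -0.17 and that of lysosomal genes -0.18.

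**Figure D3:**
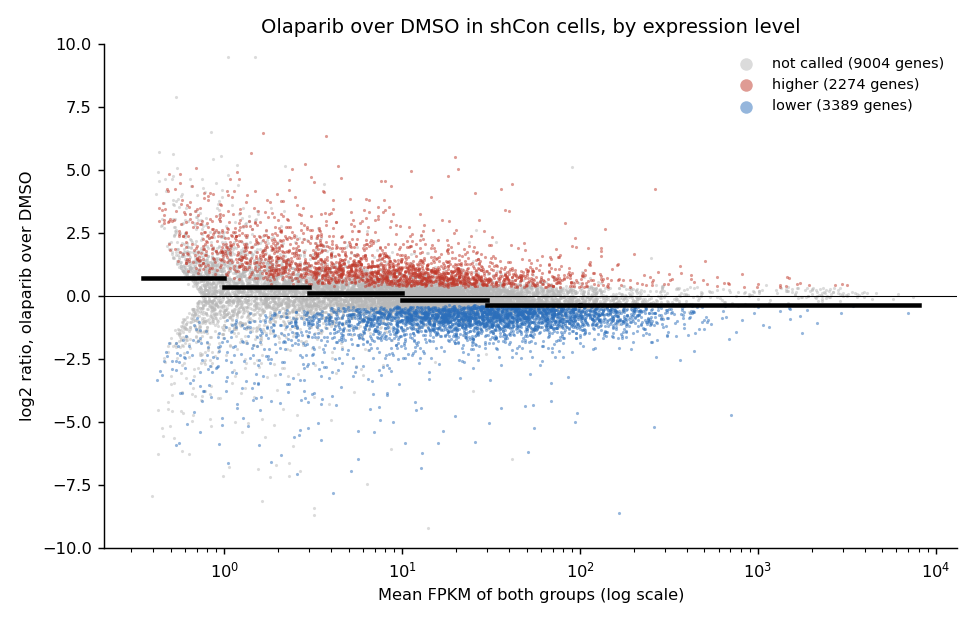
Log2 ratio of olaparib over DMSO (vertical axis, drawn to at most 9.5 either way) against mean FPKM (log scale) for tested genes above 0 in both groups, coloured by call, with black bars at the median of each band of level. The median lies at 0.70 below 1 FPKM and at -0.37 between 30 and 100 FPKM.

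Genomic span moved with the calls too. Of the quintile of protein-coding genes with the shortest span, up to 9.98 kb, 8.94% were higher and 36.2% lower (median -0.35). Of the quintile with the longest, from 95.1 kb, 25.4% were higher and 18.6% lower (median 0.11). The longest quintile had a higher median than the shortest in each of the 6 bands of level, as in genes of 30 to 100 FPKM, whose median was -0.55 in the shortest quintile and -0.15 in the longest. Relative to genes of like level and span the median was 0.97 for mitotic kinesins, 0.74 for the centromere and kinetochore, 0.68 for condensin and cohesin and 0.59 for centrioles, the last below its plain median of 0.71.

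**Figure D4:**
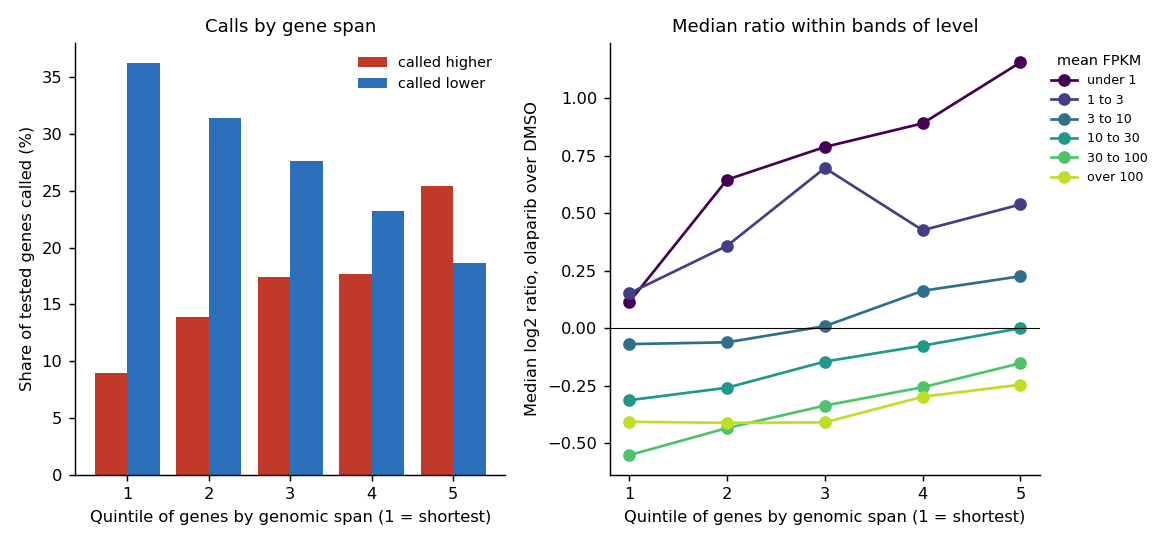
Left, share of tested protein-coding genes called higher or lower in each quintile by genomic span; right, median log2 ratio of olaparib over DMSO by span quintile within bands of mean FPKM. Higher calls grow from 8.94% in the shortest quintile to 25.4% in the longest, while lower calls shrink from 36.2% to 18.6%.

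Falls were frequent on part of chromosome 7. Of 173 protein-coding genes of at least 1 FPKM in its first 60 Mb, 5 were higher and 119 lower (68.8%), with a median log2 ratio of -0.96. On the rest of the chromosome 129 of 341 genes were lower (median -0.42), and on all other chromosomes 27.04% (median -0.13). The 16 genes above 100 FPKM in that stretch were all lower, among them ACTB, cytoplasmic actin, at 1263 FPKM with olaparib and 2174 FPKM with DMSO, and CHCHD2, a mitochondrial protein, at 173 and 516 FPKM. Relative to genes of like level and span the median was -0.82, and it was -0.83 after quantile normalization. The exceptions that were higher were COL28A1, EEPD1, AMPH, MIOS and ANKMY2. COL28A1 stood at 23.1 FPKM with olaparib and 3.30 FPKM with DMSO. In the authors' deposited table q was 0.00246 for EEPD1, 0.00781 for MIOS and 0.0479 for ANKMY2. Of the protein-coding genes described in earlier paragraphs, HUS1, EGFR, GRB10, IL6 and GARS lie in this stretch. Noncoding genes were left out of this count wherever they lie. SNHG15 is one of these, so it may lie in this stretch too, and the part of its region in its fall was not tested.

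The same stretch was also read in olaparib cells with shFoxO1 set against those with shCon. Both comparisons use the shCon olaparib group, so low values in it raise this second ratio, which is no independent support. There the 173 genes had a median log2 ratio of 0.80, and 142 of them were above 0. The rest of chromosome 7 had a median of 0.36, with 232 of 341 genes above 0, and all other chromosomes a median of 0.05. What sets this stretch apart was not tested, and for HUS1, EGFR, GRB10, IL6 and GARS it cannot be told apart from olaparib itself. Windows of 10 Mb with at least 20 such genes numbered 218, and the lowest median was on chromosome 7 between 20 and 30 Mb (-1.21, with 26 of 32 genes lower). Outside chromosome 7 the lowest median was on chromosome 13 between 110 and 120 Mb (-0.88, with 17 of 23 genes lower). On chromosome 11 between 60 and 70 Mb 112 of 183 genes were lower and 1 was higher (median -0.78). FOSL1 lies there. The other genes described above were not placed by window here, so some of them may lie there too. For genes in this window the part of the region in their falls was not tested. The highest median was on chromosome 1 between 60 and 70 Mb (0.83, with 14 of 23 genes higher). By whole chromosomes, chromosome 4 had the highest share of genes called higher, 29.6%, with 14.4% lower.

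**Figure D5:**
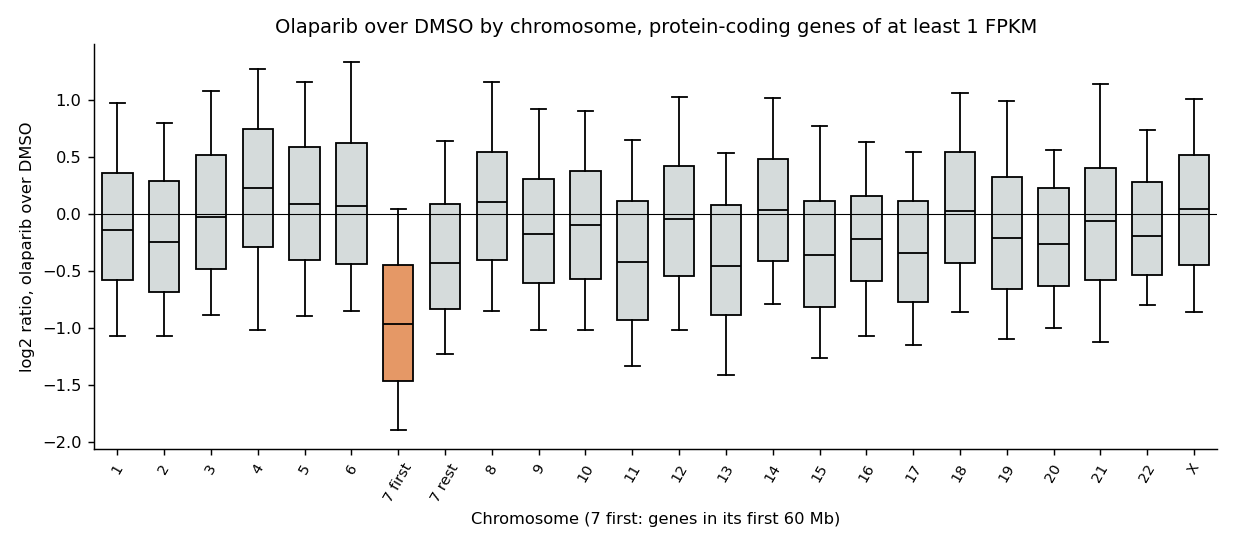
Log2 ratio of olaparib over DMSO for protein-coding genes of at least 1 FPKM on each chromosome, with boxes from the first to the third quartile, a line at the median and whiskers from the 10th to the 90th percentile; chromosome 7 is drawn as its first 60 Mb (orange) and the rest. The orange box has its median at -0.96, against -0.42 for the rest of chromosome 7.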

How the data were processed

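Libraries were directional and paired-end, from RNA depleted of ribosomal RNA, per the labels' protocols. The submitters' processing notes name CASAVA 1.4, HISAT2 2.1.0, Cufflinks 2.2.1 and hg38, with neither roles nor settings. Per the file headers, the authors' columns give each gene's FPKM per group and its status. The p-value, the q-value and the test statistic, a score, are the authors' deposited values too. That both libraries entered a group's value is not stated. FPKM depends on the length model of each transcript and on how much of the library other transcripts fill. Benjamini-Hochberg adjustment over the tested genes gives the authors' q-values. Genes not tested numbered 45741, and 13 had too many reads. Dates stood in place of the symbols of 19 tested genes, which were counted and left unnamed. Columns of values left out because they matched no sample numbered 0. The protocols name 2 sequencing providers and do not assign libraries to them, and a batch of this kind was not tested.

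Log2 ratios of olaparib over DMSO were computed from FPKM without a pseudocount, and no ratio was computed for the 174 tested genes at 0 in a group. With 1 value per group the planned limma fit could not be made, so calls are those of the authors' q-values at 0.05. Members and the 49 gene lists were chosen with earlier results of these data known. Named were the 15 largest changes each way with a mean of at least 10 FPKM, up to 4 members per list and direction with a mean of at least 1 FPKM, and PARP1, PARP2, FOXO1, STAT3 and TOP2A. Some genes that this rule names are not reported here. EGFR, CCNB1, CCNB2, MYBL2, FOXM1, the chromosome 7 genes and the exceptions were picked with their values known. RefSeq of GRCh38.p14, the build of hg38, matched 88.6% of tested genes, and the promoter listed first was used. How reads of overlapping genes or near-identical copies were divided is not given in the sources used here. Scripts used Python 3.11.15, pandas 2.3.3 and numpy 2.4.6, and the ratios and the adjustment of p-values were tested on simulated data.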

Additional observations from a re-analysis of the deposited data

How the results depend on the processing

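No paired analysis was possible because each group has 1 value per gene, and for the same reason leaving out a library could not be run. Called genes numbered 1643 higher and 2684 lower with adjustment over every listed gene, 2132 and 3354 with a mean of at least 1 FPKM, 1580 and 2607 at a q-value of 0.01, and 2305 and 3302 without the first 60 Mb of chromosome 7, the last chosen after seeing the data; all lie within 1.5 times the main counts. Over all tested genes the median ratio on the log2 scale, -0.07, was -0.06 with a pseudocount of 1 FPKM, 0.021 after quantile normalization, 0.18 after upper quartile scaling and -0.06 without that stretch. Upper quartile scaling shifts each ratio by 0.25.

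Of 44 list medians, 5 changed sign after quantile normalization, 8 after upper quartile scaling, 7 relative to genes of the same FPKM band and span (chosen after seeing the data) and 0 with the pseudocount. After quantile normalization JAK-STAT became 0.25, glucocorticoid response 0.16, matrix proteases 0.012, autophagy 0.0505 and chromatin enzymes 0.12. After upper quartile scaling ADP-ribosylation became 0.039, RB-E2F 0.0499, cytokine receptors 0.055, JAK-STAT 0.17, glucocorticoid response 0.029, matrix proteases 0.041, autophagy 0.097 and chromatin enzymes 0.19. Relative to genes of like level and span p53 targets became 0.17, JAK-STAT 0.25, glucocorticoid response 0.16, EMT and breast identity 0.0097, lipid genes 0.044, autophagy 0.014 and chromatin enzymes 0.097. The causes were not tested. Of the 287 called named genes with a value in that last comparison GAPDH changed sign, to 0.0047, and none of 295 did under the other scalings. Of these 295 genes 25 lost their call with adjustment over every listed gene, among them DUSP4 and BOLA2B.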

Other observations

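Some genes were listed at 0 FPKM in a single group, so no fold can be given. Among tested genes 74 were at 0 with olaparib, of which 44 were called lower, and 100 were at 0 with DMSO, of which 37 were called higher. LCP1, an actin-bundling protein known from leukocytes, was listed at 0 with olaparib and at 21.1 FPKM with DMSO (q = 0.00903 in the authors' deposited table). The chemokine CCL3 was listed at 0 with olaparib and at 16.6 FPKM with DMSO. ALDH1A1, an aldehyde dehydrogenase used as a marker of stem-like breast cancer cells, was listed at 0 with olaparib and at 5.66 FPKM with DMSO, and CSF3, the granulocyte colony factor, at 0 and 3.08 FPKM. BBOX1, of carnitine synthesis, was at 2.87 FPKM with olaparib and listed at 0 with DMSO.

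Differences of at least 2-fold that were not called numbered 1148 genes. Among 681 tested long noncoding RNAs 17.2% were called higher and 9.25% lower, with a median log2 ratio of 0.40 (0.26 after quantile normalization), against 16.6% higher and 27.4% lower and a median of -0.14 in protein-coding genes. Genes below 1 FPKM of any kind had a median of 0.70, and the part of level in this difference was not tested.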
